A study of Mus musculus with 12 samples.

Results

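The genes for the receptors of glutamate, GABA and glycine, the fast transmitters of the brain, were followed through bulk RNA sequencing of the mouse arcuate nucleus (ARC). Members were all genes whose symbol names an AMPA, kainate, delta or NMDA receptor subunit, a metabotropic glutamate receptor, a GABA-A or GABA-B receptor subunit, or a glycine receptor subunit. Of the 16640 genes in the table, 46 were members, namely 25 for glutamate, 16 for GABA and 5 for glycine. Another 6 genes that fit the rule (Gabra6, Gabrp, Gabrr1, Gabrr2, Gabrr3 and Grin3b) were not analysed here.

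All animals were female, were 27 weeks old and carried floxed Esr1, the gene for oestrogen receptor alpha. Control Esr1fl/fl mice have no Cre. In mutant Esr1Nkx2-1Cre mice Cre is driven by Nkx2-1, a gene active in the developing ventral forebrain and also in thyroid and lung, so that deletion is not limited to the ARC or to neurons. Mice were fed chow or a high-fat diet (HFD) for 17 weeks, which gave 3 control chow, 4 mutant chow, 2 control HFD and 3 mutant HFD libraries. The labels do not say whether a library held 1 animal or a pool, so the p-values measure the spread between these libraries.

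Ionotropic receptors are ion channels built from several subunits. AMPA and kainate receptors carry fast excitation, and NMDA receptors admit calcium when glutamate and depolarisation coincide. GABA-A and glycine receptors are chloride channels that usually inhibit, and the alpha, beta and gamma subunits of a GABA-A receptor set its kinetics, location and drug sensitivity. Metabotropic glutamate receptors and GABA-B receptors act more slowly through G proteins. In the ARC, the AgRP neurons that drive feeding release GABA, and glutamate input through NMDA receptors on these neurons is known to take part in their response to fasting.

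Libraries differed in ways that the labels do not describe. Esr1 signal was 7.29 to 19.8 in control chow, 1.65 to 6.05 in mutant chow, 15.3 to 22.4 in control HFD and 10.7 to 16.6 in the 3 libraries labelled mutant HFD. The last range lies inside that of the controls, which goes against the label, and these are called libraries labelled mutant HFD throughout. The signal sums the whole gene, so it also counts RNA from outside the deleted part. Arcuate markers (9 of 9 in the table, none at 0) were present in every library, with summed signal between 1819 and 7275. Markers of the neighbouring ventromedial nucleus (VMN; Nr5a1, Fezf1 and Adcyap1, 3 of 3, none at 0) were also present, with sums of 23.2 to 64.2 in control chow, 50.1 to 145 in mutant chow, 35.4 to 124 in control HFD and 78.6 to 115 in libraries labelled mutant HFD. Control HFD library 1 stood apart, with the lowest arcuate marker score and 74.7 for Tcf7l2, a thalamic marker that was at most 25.0 elsewhere. The other thalamic markers listed did not stand apart there. Prkcd (12.4) lay inside the range of the other libraries, and Lef1 (4.06) was close to its 4.03 in labelled mutant HFD library 2. Control chow library 2 also stood apart, with the highest column sum (1254999) and the highest pituitary marker score (8.71). Its signal for the pituitary marker Cga was 4802, against at most 1586 elsewhere. Tshb (655) was nearer to control chow library 3 (568). Prl (22.1) was below mutant chow library 4 (52.5). In whole tissue, fewer cells of a type and less RNA per cell cannot be told apart.

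Levels are given as the abundance signal of the deposited table. It was taken to be length-normalised and close to TPM, with column sums of 922172 to 1254999, but the sources do not state its unit. Levels of different genes, and shares of subunits, are set side by side on that assumption. The order of the mean levels over 12 libraries ran from Gabbr1 at 406 ± 59.3 (SD) to Grm6 at 0.0681 ± 0.0922. Gabbr1 was the one member whose range overlapped with no other, since its lowest library (301) was above the highest of Gria1 (171). All other neighbours in the order overlapped across libraries. There were 13 members with a mean of at least 50, and 6 with a mean under 5 (Gabrd, Glra1, Glra4, Grin2a, Grm2 and Grm6). Glra1, Glra4 and Grm6 were listed at 0 in at least 1 library.

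**Figure D1:**
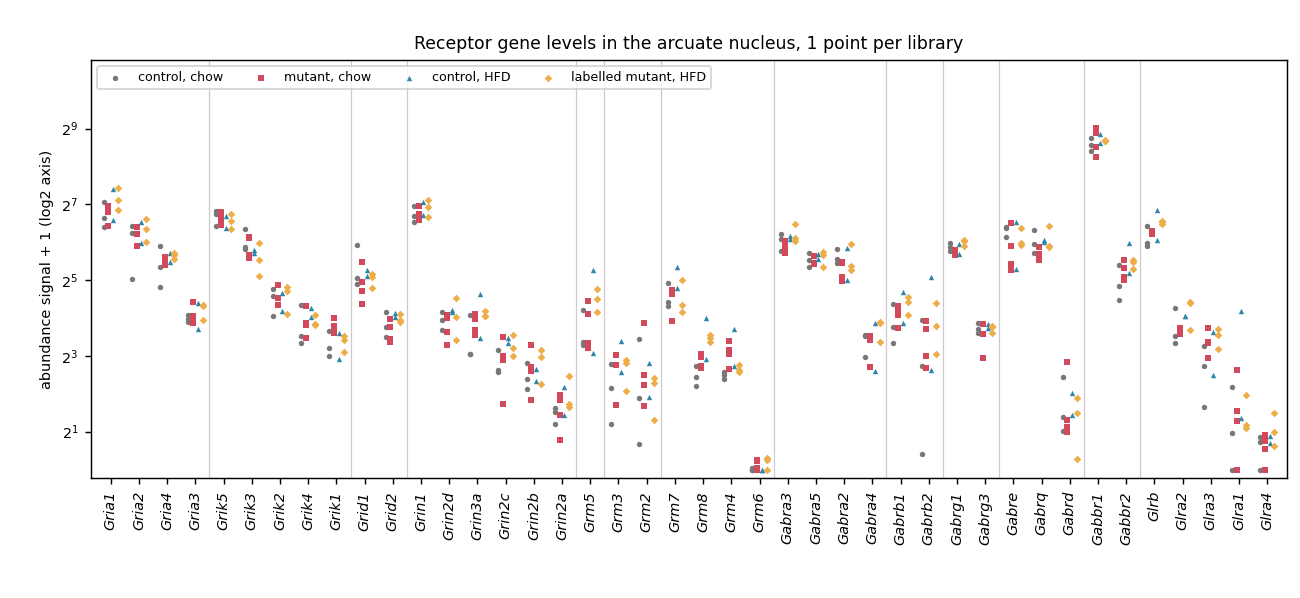
Level of 42 of the receptor genes in each library, as abundance signal + 1 on a log2 axis; every point is 1 library, colours and markers give the 4 groups, and vertical lines separate receptor classes. Gabbr1 stands above all others, and for nearly every gene the 4 groups share most of their range.

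No receptor gene passed the test between genotypes or diets once p-values were adjusted over all genes. Of the 44 members with a signal of at least 1 in at least 2 libraries (Glra4 and Grm6 were below this), 0 passed an adjusted p of 0.05 in any of the 7 comparisons by limma. Among all 15801 tested genes the share that passed was also small. It was 0.0190% between genotypes fed chow and 0.0190% between diets within mutants. It was 0.00633% between genotypes fed HFD and 0.00633% when genotype was averaged over diets. It was 0% between diets within controls, 0% when diet was averaged over genotypes and 0% for the interaction. The smallest adjusted p of a member was 0.823. The unadjusted 95% interval of a log2 difference reached, at the median over members, 0.62 to either side between genotypes fed chow. When diet was averaged over genotypes it reached 0.48. Smaller differences were not detectable for a typical member, and the adjusted test needs larger ones still. Not passing the adjusted test therefore does not exclude larger differences. Which differences the unadjusted interval leaves out depends on the estimate of each member.

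The GABA-B receptor works as a pair of Gabbr1, which binds GABA, and Gabbr2, which couples to the G protein. Gabbr1 (chr17:37045966-37075067, plus strand, GRCm38) had a signal of 428, 339 and 375 in control chow, 474, 513, 301 and 361 in mutant chow, 464 and 392 in control HFD, and 409, 417 and 404 in libraries labelled mutant HFD. The groups overlapped throughout, and the log2 difference for diet averaged over genotypes was 0.10 ± 0.15 (SE). Gabbr2 (chr4:46662305-46991873, minus strand) had a signal of 41.2, 21.2 and 27.6 in control chow, 33.0, 45.5, 30.9 and 38.6 in mutant chow, 62.2 and 35.4 in control HFD, and 38.1, 44.8 and 43.9 in libraries labelled mutant HFD. The highest value was control HFD library 1 and the lowest control chow library 2. For diet averaged over genotypes the log2 difference was 0.44 ± 0.20 (limma, unadjusted p = 0.0437, adjusted p = 0.886), and in controls it was 0.68 ± 0.30 (unadjusted p = 0.0422, adjusted p = 0.998). Without control HFD library 1 these differences were 0.24 and 0.28. Gabbr1 made up 88.2% to 94.1% of the summed GABA-B signal in each library.

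The promoters of both GABA-B genes are shown because one is the most abundant member and the other is among the members with the smallest p for diet. The bases directly upstream of each gene on its own strand are from RefSeq (GRCm38.p6), and capitals mark GC boxes (GGGCGG).
Gabbr1 (chr17:37045716-37045965, plus strand): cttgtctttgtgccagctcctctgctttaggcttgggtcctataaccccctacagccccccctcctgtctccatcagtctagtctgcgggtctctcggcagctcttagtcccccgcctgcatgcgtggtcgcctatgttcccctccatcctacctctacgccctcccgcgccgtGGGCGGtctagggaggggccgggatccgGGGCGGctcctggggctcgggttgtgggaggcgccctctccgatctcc
Gabbr2 (chr4:46991874-46991964, minus strand): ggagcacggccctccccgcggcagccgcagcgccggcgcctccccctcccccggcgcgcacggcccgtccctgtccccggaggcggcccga
Both are rich in G and C, at 66.0% over 250 bases and 85.7% over 91 bases. The Gabbr1 window holds 2 GC boxes and the Gabbr2 stretch 0. The full 250-base Gabbr2 window, which reaches into a stretch not printed here, does hold one.

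Among GABA-A alpha subunits, which carry the benzodiazepine-binding face, Gabra3 had the highest mean level. Its signal was 72.8, 53.4 and 66.5 in control chow, 64.9, 58.1, 57.0 and 51.5 in mutant chow, 71.2 and 66.5 in control HFD, and 68.0, 88.8 and 64.0 in libraries labelled mutant HFD. These ranges overlapped, and the log2 difference between genotypes on chow was -0.14 ± 0.17 (SE). Gabra2 had a signal of 55.9, 42.4 and 46.01 in control chow, 42.6, 32.9, 30.5 and 43.8 in mutant chow, 56.2 and 30.9 in control HFD, and 61.1, 40.6 and 37.7 in libraries labelled mutant HFD. Its groups overlapped as well, with a log2 difference between genotypes on chow of -0.36 ± 0.24 (limma, unadjusted p = 0.166).

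Gabra4 and Gabrb1 lie head to head on opposite strands of chromosome 5 with overlapping ends, and since strand use in counting was not stated, their values are uncertain.

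Among beta subunits, which with alpha form the GABA-binding site, Gabrb2 was highly variable, with a signal from 0.333 in control chow library 2 to 32.7 in control HFD library 1 and a median of 9.63. Its log2 difference for diet averaged over genotypes, 0.96 ± 0.59, was the largest of the 44 members in that comparison and did not pass (unadjusted p = 0.13).

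Gabrg1, a gamma subunit found mainly in hypothalamic and amygdalar neurons and in glia, varied little, from 49.7 to 65.5 over all libraries.

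Gabre and Gabrq encode the epsilon and theta subunits, which are enriched in the hypothalamus and some brainstem nuclei, and both were prominent here at means of 66.4 and 60.2. Gabre signal was 81.5, 84.0 and 69.4 in control chow, 37.7, 41.97, 89.9 and 58.2 in mutant chow, 38.2 and 92.2 in control HFD, and 62.5, 81.3 and 59.8 in libraries labelled mutant HFD. The 3 lowest Gabre values were in mutant chow 1, control HFD 1 and mutant chow 2, which had the 3 highest VMN marker levels, at 4.87, 5.09 and 5.42. Their part in the Gabre values was not tested. The log2 difference of Gabre between genotypes on chow was -0.53 ± 0.32 (unadjusted p = 0.121). Gabrd, the delta subunit of extrasynaptic receptors, was low, with a mean of 2.19.

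GABA-A genes lie in chromosomal clusters. On chromosome X, the 3 genes Gabre, Gabra3 and Gabrq had log2 differences below 0 between genotypes on chow, at -0.53, -0.14 and -0.31. On HFD the same genes were above 0, at 0.17, 0.08 and 0.03. Gabra5 and Gabrg3 of the chromosome 7 cluster were also below 0 on chow, at -0.04 and -0.26. The cluster that holds Gabrb2 went the other way on chow, with 3 of 3 genes above 0 and a median of 0.96. In the cluster that holds Gabrb1, 1 of 4 genes was above 0 on chow, with a median of -0.10. Of all genes 52.2% were above 0 in this comparison. The clusters thus did not share 1 direction on chow. Members of a cluster are not independent, and none passed the adjusted test.

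Glycine receptors are channels of alpha subunits with Glrb, the subunit that binds the scaffold gephyrin. Glrb signal was 85.7, 58.4 and 61.6 in control chow, 75.0, 74.9, 73.7 and 77.4 in mutant chow, 114 and 65.4 in control HFD, and 92.5, 87.7 and 91.2 in libraries labelled mutant HFD. The mutant libraries separated by diet, and the control libraries did not. The log2 difference for diet averaged over genotypes was 0.30 ± 0.15 (limma, unadjusted p = 0.0633). Glra2 was the main alpha subunit, at 56.01% of the alpha signal on average. Glra3 took 26.3% ± 6.61 (SD) over the 3 control chow libraries and 39.5% ± 4.21 (SD) over the 4 mutant chow libraries, with no overlap. For Glra2 these shares were 66.1% ± 12.8 and 50.02% ± 7.59. The Glra3 signal itself overlapped, at 2.15 to 8.59 in control chow and 6.64 to 12.3 in mutant chow. Shares were taken for several receptor sets and comparisons, and none was tested. Glra1, the adult spinal subunit, was highest in control HFD library 1 at 17.1, with at most 5.23 elsewhere.

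The AMPA receptor genes were led by Gria1, with a signal of 134, 83.5 and 99.2 in control chow, 114, 123, 85.4 and 110 in mutant chow, 168 and 95.3 in control HFD, and 115, 136 and 171 in libraries labelled mutant HFD. The 4 groups overlapped. All 4 AMPA genes had log2 differences above 0 for diet averaged over genotypes, between 0.09 for Gria3 and 0.33 for Gria1, none past the test. Of all genes 46.5% were above 0. Gria2, whose edited subunit makes the channel impermeable to calcium, held 28.5% of the AMPA signal on average.

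Grin1, the obligate NMDA subunit, had a signal of 122, 91.6 and 102 in control chow, 98.8, 124, 106 and 95.8 in mutant chow, 132 and 105 in control HFD, and 122, 137 and 100 in libraries labelled mutant HFD. Its log2 difference was 0.02 ± 0.17 between genotypes on chow and 0.17 ± 0.13 for diet averaged over genotypes, with overlapping groups in both. Grin2d, the subunit of slowly deactivating receptors, was the most abundant GluN2 gene at a mean of 14.6 and 50.1% of that signal. Grin2a and Grin2b, the main forebrain partners, had means of 2.28 and 5.28. All 6 NMDA genes had log2 differences above 0 for diet averaged over genotypes, from 0.12 for Grin2b to 0.54 for Grin2c. Of all genes 46.5% were above 0.

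**Figure D2:**
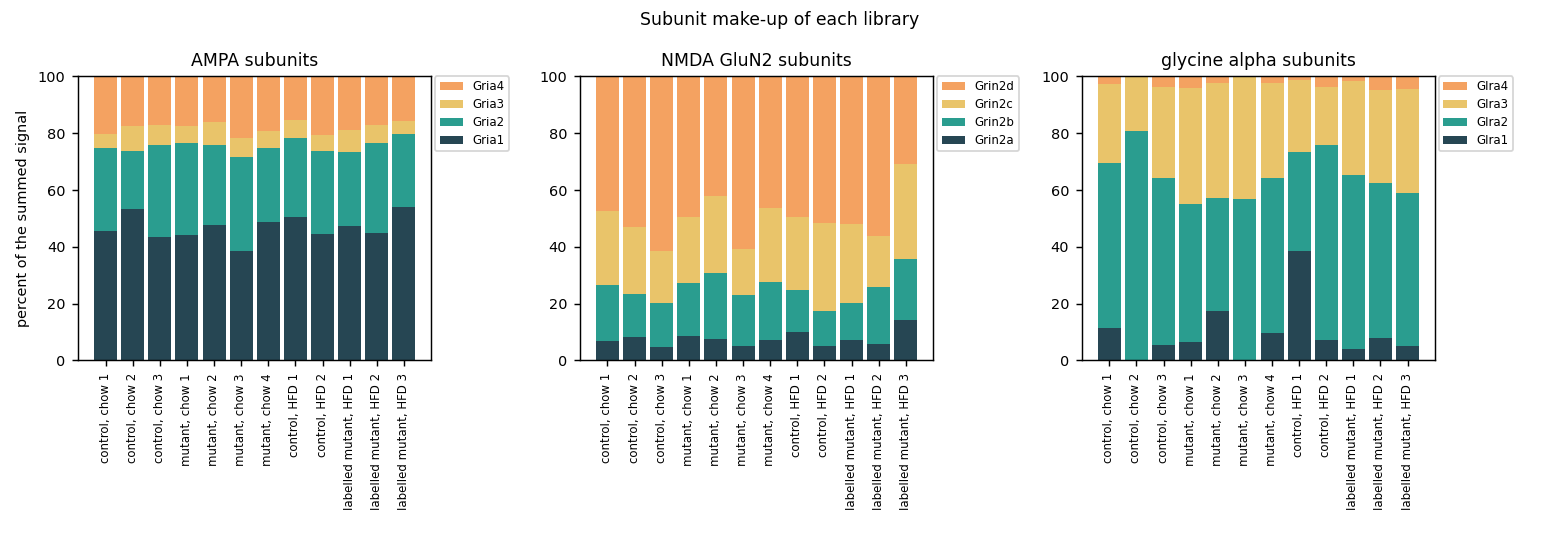
Percent of the summed signal held by each AMPA receptor subunit, each GluN2 subunit of the NMDA receptor and each alpha subunit of the glycine receptor; every bar is 1 library. Gria1 takes the largest share of the AMPA signal in all 12 libraries, from 38.6% to 54.0%, and Grin2d takes the largest share of the GluN2 signal in 11 of 12 libraries.

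Of the 5 kainate receptor genes, 4 had lower values on HFD averaged over genotypes, none past the test. Grik5, a high-affinity subunit, had a signal of 105, 113 and 85.6 in control chow, 104, 94.5, 111 and 87.4 in mutant chow, 81.4 and 102 in control HFD, and 106, 92.6 and 80.4 in libraries labelled mutant HFD. Its groups overlapped, with a log2 difference for diet averaged over genotypes of -0.12 ± 0.13. For diet averaged over genotypes, 4 of 5 kainate genes had a log2 difference below 0 (median -0.12), while 46.5% of all genes were above 0. Within controls 4 of 5 were below 0 (49.0% of all genes above) and within mutants 3 of 5 (46.9% above). The lowest averaged difference was that of Grik3 at -0.30 ± 0.18 (limma, unadjusted p = 0.121). Grid1, a delta receptor gene, had a signal of 28.6, 59.3 and 32.4 in control chow, 25.1, 30.2, 43.2 and 19.5 in mutant chow, 33.7 and 37.3 in control HFD, and 34.5, 26.8 and 32.6 in libraries labelled mutant HFD. Its highest value was control chow library 2, and its log2 difference between genotypes on chow was -0.41 ± 0.29 (unadjusted p = 0.173).

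Among metabotropic glutamate receptors, most of group III are presynaptic and reduce transmitter release. Grm7 was the most abundant, with a signal of 20.4, 18.998 and 29.5 in control chow, 24.9, 25.7, 24.0 and 13.999 in mutant chow, 26.8 and 40.0 in control HFD, and 19.2, 31.2 and 17.0 in libraries labelled mutant HFD. The single highest value was control HFD library 2, and the groups overlapped. Grm8 (chr6:27275119-28135178, minus strand) had the clearest difference with diet of all members. Its signal was 4.45, 3.60 and 5.59 in control chow, 6.77, 5.68, 7.23 and 5.35 in mutant chow, 14.9 and 6.57 in control HFD, and 9.40, 10.2 and 10.7 in libraries labelled mutant HFD. In each genotype every HFD library was above every chow library, although control HFD library 2 lay within the mutant chow range.

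The log2 difference of Grm8 for diet averaged over genotypes was 0.81 ± 0.23 (limma, unadjusted p = 0.00396, adjusted p = 0.823). In controls it was 1.00 ± 0.35 (unadjusted p = 0.0143, adjusted p = 0.998), but 0.46 without control HFD library 1 (unadjusted p = 0.248) and 0.34 without that library and control chow library 2. In mutants it was 0.62 ± 0.29 (unadjusted p = 0.057). Without control HFD library 1 the averaged difference was 0.54 (unadjusted p = 0.0369), with the neuron marker covariate 0.59 (unadjusted p = 0.0398), and with the VMN marker covariate 0.77 (unadjusted p = 0.00539). Its adjusted p ranged from 0.432 to 1.00 over the alternatives. Grm8 held 7.78% ± 1.33 (SD) of the metabotropic glutamate receptor signal over the 3 control chow libraries and 10.2% ± 1.89 (SD) over the 2 control HFD libraries. Its share was 8.47% ± 1.22 (SD) over the 4 mutant chow libraries and 13.6% ± 2.54 (SD) over the 3 labelled mutant HFD. These shares did not overlap between diets in either genotype, with the nearest control libraries at 8.86% and 8.81%, and no test was made of them.

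The Grm8 promoter is shown as the member with the smallest p in any comparison, read and marked as above.
Grm8 (chr6:28135179-28135396, minus strand): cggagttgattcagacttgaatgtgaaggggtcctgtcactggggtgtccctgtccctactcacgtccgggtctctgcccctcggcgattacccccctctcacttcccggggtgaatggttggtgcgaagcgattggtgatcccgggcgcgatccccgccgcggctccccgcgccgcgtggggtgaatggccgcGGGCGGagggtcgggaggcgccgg
It is 68.3% G and C over 218 bases and holds 1 GC box. RefSeq promoter windows were at hand for 30 of 46 members (37 windows of 250 bases before the start, both strands searched). The full oestrogen response element (GGTCA, 3 bases of any kind, TGACC) was in 0 of 37 windows, against 0.0639% of all 32851 promoters. Its GGTCA core alone, which the full element contains, was in 18.9% against 35.2%, GGGCGG in 54.1% against 32.7%, TGACG in 5.41% against 17.8% and TATAAA in 10.8% against 12.4%. A match is a description of the sequence, not a binding site.

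Grm4, another group III receptor, showed opposite diet differences in the 2 genotypes. Its signal was 4.93, 4.21 and 4.66 in control chow, 7.94, 7.28, 5.34 and 9.54 in mutant chow, 12.2 and 5.65 in control HFD, and 5.19, 5.01 and 5.76 in libraries labelled mutant HFD. All mutant chow libraries lay above all control chow libraries, and both control HFD libraries lay above control chow. The interaction was -1.15 ± 0.46 on the log2 scale (limma, unadjusted p = 0.0278, adjusted p = 0.999), and -0.66 without control HFD library 1. Grm5, a group I receptor, had a signal of 17.5, 8.76 and 9.39 in control chow, 16.2, 20.9, 8.32 and 9.19 in mutant chow, 37.3 and 7.48 in control HFD, and 16.8, 26.2 and 21.6 in libraries labelled mutant HFD. Both its extremes were control HFD libraries. Grm3, the group II receptor also made by astrocytes, was low, with a signal of 3.43, 1.31 and 5.94 in control chow, 2.28, 7.11, 7.20 and 5.76 in mutant chow, 9.48 and 4.95 in control HFD, and 3.20, 5.97 and 6.42 in libraries labelled mutant HFD. Its groups overlapped in every comparison.

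**Figure D3:**
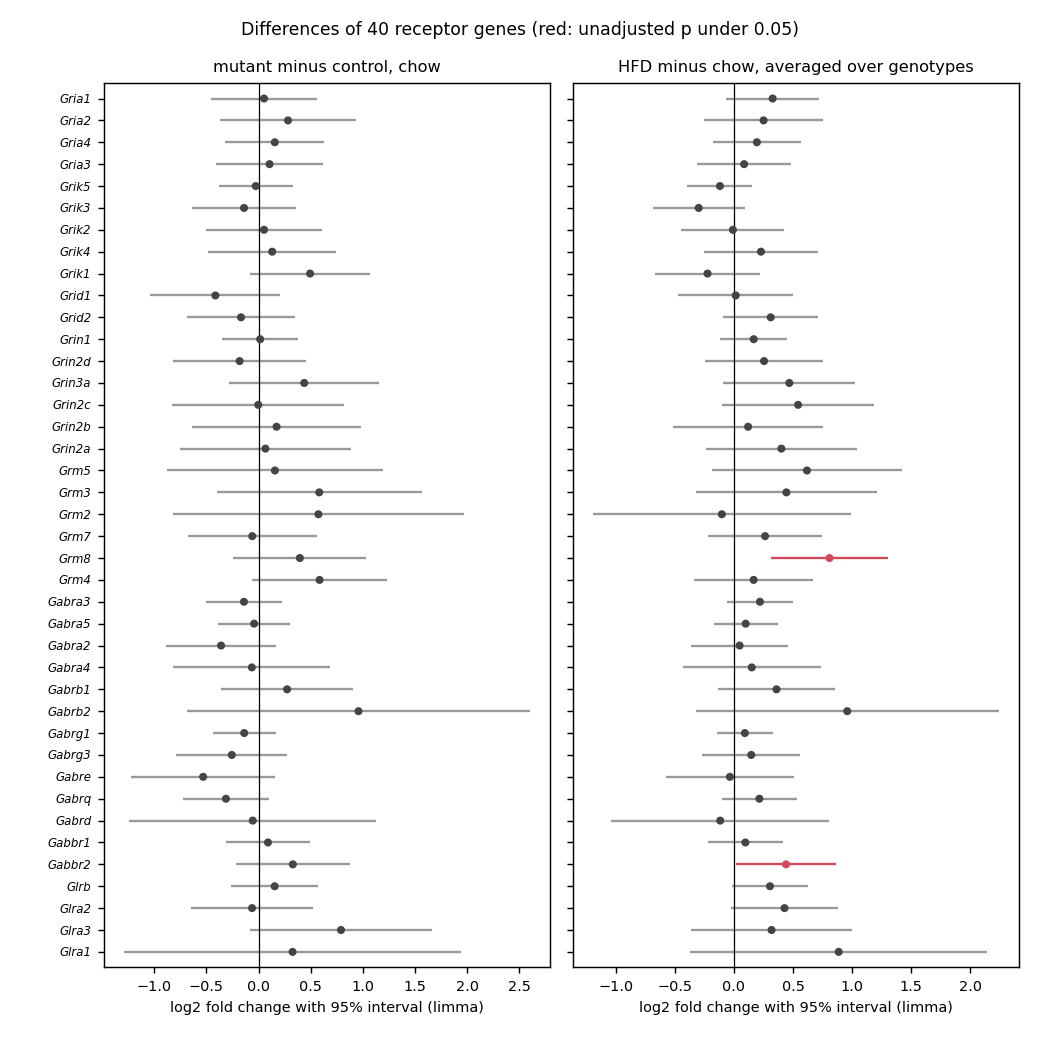
Log2 fold change with its 95% interval (limma) of 40 tested receptor genes for mutant minus control on chow (left) and for HFD minus chow averaged over genotypes (right), with red for an unadjusted p under 0.05. On the left 0 genes are red, on the right 2 (Grm8 and Gabbr2), and 33 of these 40 genes lie above 0 on the right.

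On chow, the comparison that asks what loss of oestrogen receptor alpha does to the ARC, 26 of 44 members (59.1%) had a log2 difference above 0, against 52.2% of all genes. The median was 0.08, and 0.01 over all genes. By unadjusted p under 0.05, 1 member differed (2.27%, against 4.34% of all genes). It was higher (against 2.59% of all genes), and 0 were lower (against 1.75%). Without overlap, 1 member (Grm4) was higher (against 2.54%) and 0 were lower (against 1.97%). These shares are close to the background. Several marker lists also had higher values in mutants on chow. The log2 difference was above 0 in 3 of 3 VMN genes (median 1.44, 1 with an unadjusted p under 0.05), 5 of 5 microglia genes (0.47, 3 with an unadjusted p under 0.05), 6 of 6 oligodendrocyte genes (0.65) and 4 of 4 genes of the suprachiasmatic nucleus (0.73). Summed microglia signal was 164 to 269.9 in control chow and 288 to 331 in mutant chow, and that of oligodendrocytes 1244 to 3720 and 1792 to 5673. With the oligodendrocyte marker level as a covariate the member median was 0.08, with 29 of 44 above 0. With the neuron marker level as a covariate the member median was -0.03, with 17 of 44 above 0. The part of the microglia and suprachiasmatic markers was not tested. With the mean log2 level of the VMN genes as a covariate, a fit added after the data were seen, the median was -0.12 and 15 of 44 members were above 0.

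Under HFD the receptor genes as a group lay slightly above chow. For diet averaged over genotypes, 37 of 44 members (84.1%) had a log2 difference above 0, against 46.5% of all genes, with a median of 0.22 against -0.02. That rests in part on 2 libraries. Without those with the highest and lowest neuron marker level (control HFD 1 and control chow 2) the averaged median was 0.04, with 27 of 44 above 0. The choice of control chow 2 as lowest rests on a near tie with control chow 3 (6.7817 against 6.7824). Within mutants 36 of 44 members were above 0, against 46.9%, with a median of 0.19, and in controls 35 of 44, against 49.0%, with a median of 0.28. Without control HFD library 1 the control comparison had 27 of 44 above 0 and a median of 0.036. Without that library and control chow library 2 it had 18 of 44 and -0.08. By unadjusted p under 0.05, 3 members differed when diet was averaged (6.82%, against 5.29% of all genes), of which 3 were higher (against 1.60%) and 0 lower (against 3.69%). In controls 2 members differed (4.55%, against 3.54%), with 2 higher (against 1.44%) and 0 lower (against 2.10%). In mutants 0 differed (against 5.37%, namely 1.44% higher and 3.94% lower). Without overlap, 5 members were higher in mutants on HFD (Gabrg1, Glrb and Grm8 among them, 11.4% against 3.11%) and 1 lower (Grik1, against 4.88%). In controls 4 were higher (Grin2c, Grin2d, Grm4 and Grm8, 9.09% against 6.32%) and 1 lower (Grik3, against 7.76%).

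General neuron markers had higher values on HFD and several other lists lower values, none past the adjusted test. The list of 7 (7 of 7 in the table, none at 0) had a log2 difference above 0 in 7 of 7 genes for diet averaged over genotypes, with a median of 0.24, and 0 had an unadjusted p under 0.05. Arcuate neuron markers were above 0 in 2 of 9 genes (median -0.45, with 2 of the lower genes at an unadjusted p under 0.05), microglia markers in 1 of 5 (-0.18, likewise 2) and pituitary markers in 0 of 3 (-1.19). Their part in the result was not tested. Summed neuron marker signal was 1129 to 1432 in control chow, 1177 to 1532 in mutant chow, 1195 to 1957 in control HFD and 1378 to 1656 in libraries labelled mutant HFD. With the mean log2 level of these markers as a covariate, the member median for diet was 0.05 and 25 of 44 members were above 0. Without control HFD library 1 the median for diet averaged over genotypes was 0.13, with 34 of 44 above 0. The 2 libraries at the ends of the neuron marker scale were also at the ends for the receptors. Control HFD library 1 (neuron marker level 7.72, member mean 4.93 on the log2 scale) was highest for 12 of 44 members, or 27.3% against 12.4% of all genes. Control chow library 2 (6.78 and 4.01) was lowest for 17 members, or 38.6% against 19.2%. Control chow library 3 had nearly the same neuron marker level (6.7824 against 6.7817) but a member mean of 4.26. The mean over members was 4.30 ± 0.31 (SD) on the log2 scale over the control chow libraries and 4.64 ± 0.41 (SD) over the control HFD libraries. It was 4.44 ± 0.09 (SD) over the mutant chow libraries and 4.59 ± 0.13 (SD) over those labelled mutant HFD.

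**Figure D4:**
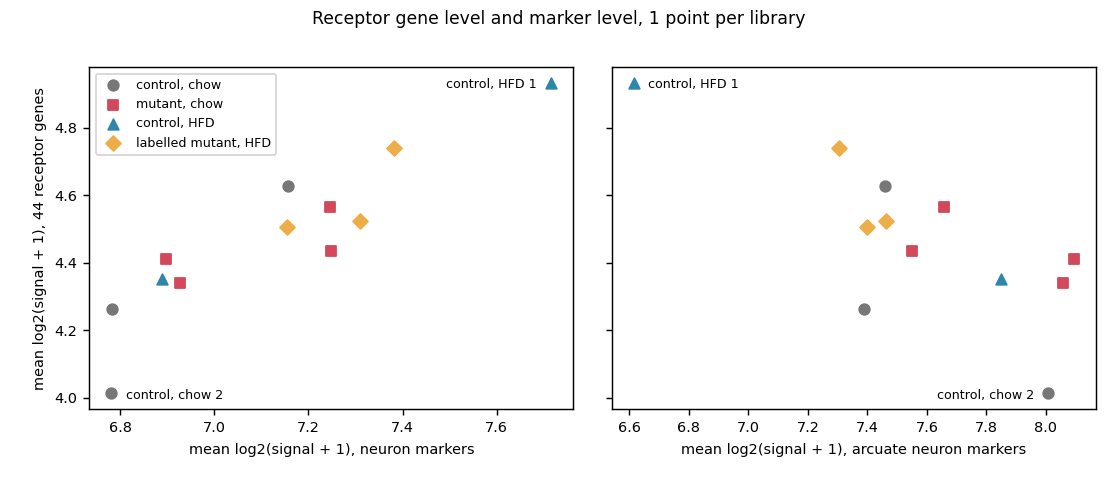
Mean log2(signal + 1) of the 44 tested receptor genes against that of 7 neuron markers (left) and 9 arcuate neuron markers (right); each point is 1 library. Control HFD library 1 is highest for receptors and neuron markers and lowest for arcuate markers, and control chow library 2 is lowest for receptors.

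**Figure D5:**
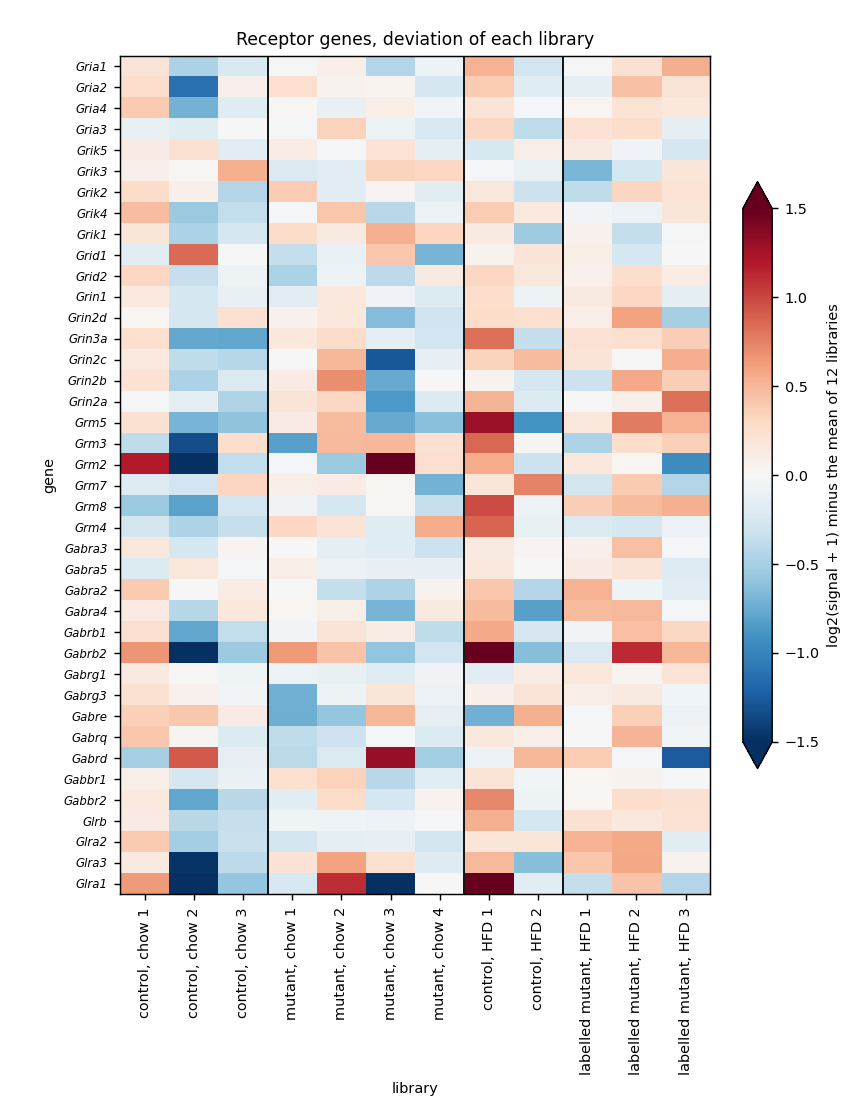
Deviation of each library from the mean of 12 libraries, in log2(signal + 1), for 40 of the tested genes (rows, ordered by class and level) and 12 libraries (columns, grouped by vertical lines). Colours stop at 1.5 in either direction, control chow library 2 is blue and control HFD library 1 red in most rows, and single libraries differ more than groups do.

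On HFD, the ranges of control libraries and of libraries labelled mutant overlapped for all 44 tested members. The log2 difference was above 0 in 26 of 44 members (against 48.4% of all genes) with a median of 0.03, 0 members had an unadjusted p under 0.05 (against 2.21%, namely 1.09% higher and 1.11% lower), and 0 were without overlap in either direction (against 7.27% higher and 8.46% lower). The direction turned with the control library used. Without control HFD library 2, 6 of 44 members were above 0 (median -0.21, 3 lower by unadjusted p), and without control HFD library 1, 32 of 44 were (median 0.14, 4 higher by unadjusted p). With 2 control HFD libraries, which were far apart for many members, this comparison had the widest intervals of the pairwise comparisons, at a median of 0.74 to either side, as had diet in controls. For the interaction, 20 of 44 members were above 0 (against 47.3%) and 1 member, Grm4, had an unadjusted p under 0.05 (against 3.44%). It was lower (against 1.87%), and 0 were higher (against 1.56%). For genotype averaged over diets, 26 of 44 were above 0 (against 50.2%) and 0 had an unadjusted p under 0.05 (against 2.85%, namely 1.52% higher and 1.34% lower).

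Genes that make, carry and anchor at these synapses were read from a list of 62, of which 60 were in the table and tested. No gene of the list passed the adjusted test in any comparison. By unadjusted p under 0.05, 3 of its 44 auxiliary and scaffold genes differed between genotypes on chow, against 4.34% of all genes. For diet averaged over genotypes 2 of 44 did (against 5.29%) and for diet in mutants 3 of 44 (against 5.37%). For genotype averaged over diets 3 of 44 did (against 2.85%) and on HFD 1 of 44 (against 2.21%). None of its 16 genes for transmitter synthesis and transport did in any comparison. Cbln2, a secreted linker between neurexins and delta receptors, had a signal of 11.2, 4.197 and 3.75 in control chow, 9.61, 8.56, 5.46 and 5.37 in mutant chow, 27.9 and 8.34 in control HFD, and 15.3, 13.4 and 17.5 in libraries labelled mutant HFD. Its log2 difference for diet averaged over genotypes was 1.16 ± 0.33 (limma, unadjusted p = 0.00429, adjusted p = 0.823). Homer3, a scaffold of group I metabotropic receptors, had a signal of 9.32 to 19.1 in control chow, 10.7 to 21.8 in mutant chow, 6.82 to 11.4 in control HFD and 5.74 to 13.4 in libraries labelled mutant HFD, and a log2 difference of -0.78 ± 0.28 (unadjusted p = 0.0158). Syndig1, an AMPA-associated gene, had 8.78 to 14.7 in mutant chow and 13.7 to 26.1 in libraries labelled mutant HFD, with a log2 difference of 0.62 ± 0.27 (unadjusted p = 0.0429). Between genotypes on chow, the AMPA and GABA-A auxiliary gene Shisa7 was 34.9 to 47.9 in controls and 46.8 to 73.9 in mutants, a log2 difference of 0.48 ± 0.20. The scaffold gene Shank2 was 6.74 to 15.8 in controls and 16.5 to 21.9 in mutants, a difference of 0.67 ± 0.29. Dlg3, another scaffold gene, was 49.1 to 58.6 in controls and 34.9 to 42.5 in mutants, a difference of -0.40 ± 0.16. On HFD the ranges of Shank2 and Dlg3 overlapped between controls and libraries labelled mutant, and those of Shisa7 did not. Cbln1, related to Cbln2, had a log2 difference of 0.83 ± 0.38 for genotype averaged over diets (unadjusted p = 0.0481), with 17.2 to 68.5 in all controls and 31.1 to 96.6 in all mutant libraries. Shisa6, an AMPA auxiliary gene, had -2.77 ± 1.12 on HFD (unadjusted p = 0.0286), with control HFD values of 17.5 and 80.4 and chow controls from 5.44 to 76.5. Of 16 genes for transmitter synthesis and transport, 12 had a log2 difference above 0 for diet averaged over genotypes, and of 44 auxiliary and scaffold genes 32, against 46.5% of all genes. Slc17a6, the vesicular glutamate transporter of the VMN and other hypothalamic glutamate neurons, ranged from 11.5 in control HFD 2 to 89.7 in control HFD 1.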

How the data were processed

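Total RNA from microdissected ARC was sequenced in 12 libraries. Per the study's methods, the authors used Kallisto in gene mode against mm10, followed by Sleuth, and the deposited table holds an abundance signal per gene and library. Column sums ran from 922172 to 1254999, how the libraries were scaled to each other was not stated, and sequencing depth is unknown, so counting error and detection limits are left out. Tool versions, annotation release and strand use are not given in the sources used here.

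GENCODE M21 (GRCm38) gave gene symbols and coordinates and matched 16633 of 16640 identifiers, and promoter bases from RefSeq GRCm38.p6. Genes with a signal of at least 1 in at least 2 libraries (15801) were tested on log2(signal + 1) with limma 3.58.1 in R 4.3.3, using an empirical Bayes trend and 1 mean per group over all 12 libraries. Fold changes on this scale understate the change of low genes. P-values are two-sided, and adjusted p-values are Benjamini-Hochberg over all genes tested, with a threshold of 0.05. The model was tested on simulated data. The 7 comparisons were genotype on chow and on HFD, diet in controls and in mutants, their interaction and both averages. Log2 differences are mutant minus control or HFD minus chow, and the interaction is the diet difference in mutants minus that in controls. No library pair had identical values.

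The members, gene lists and marker lists were chosen with earlier results of these data known, so no test over a list is given. Values in every library are given for up to 3 members per direction and comparison with the smallest unadjusted p under 0.05, for the gene with the highest mean in each receptor class. Associated genes, up to 2 per direction and comparison under the same p, are given by their range per group, or by library. Results on 4 members are not reported here by name, although these genes entered every count and median. Other members named, such as Gabrb2, were singled out after their values were seen. Marker and member levels are means of log2(signal + 1). Alternatives were another scaling, filter, pseudocount or variance model, array weights, marker covariates, a block by the number in the column names, only the groups compared, and each library left out in turn. Leaving out a control HFD library leaves 1, which is then assumed to vary like the other groups. The VMN covariate, the block and the joint removal of 2 libraries were chosen after seeing the data.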

Additional observations from a re-analysis of the deposited data

Results flagged for a closer look

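In mutant chow, the one group of 4, a single library lay far from the other 3 for 4 of 42 genes by Dixon's criterion. Its nominal rate is about 1 gene in 20, for values of 1 normal spread. The share over all genes was not counted, so 4 of 42 cannot be called an excess in receptor genes. Mutant chow library 3 was low for Gabra4 at 5.53 and high for Gabrd at 6.11. This library also listed the most genes at 0, with 1768, against a lowest number of 201. Of the 12 libraries it was the highest for 19.6% of all tested genes and the lowest for 17.7%. Mutant chow library 1 was high for Gabra5 at 48.5, and mutant chow library 4 was low for Grm7 at 13.999. Grm4 was marked because its diet difference was not the same in both genotypes, with an interaction of -1.15 on the log2 scale (limma, unadjusted p = 0.0278, adjusted p = 0.999). It rests in part on control HFD library 1, without which it was -0.66 (unadjusted p = 0.194).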

How the results depend on the processing

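The count of members past the adjusted threshold was 0 in all 172 comparisons of a result with an alternative, and no member had an adjusted p below 0.391 in any of them. The median log2 difference of the members was compared with a margin of 1 SD between libraries (0.2293). That margin exceeded every main median except that for diet in controls, so a loss or change of sign could lie within it. The median stayed inside the margin in 167 of 172, which says little about its stability. For diet in controls (0.28) it was 0.026 with the neuron marker covariate and -0.08 without the libraries with the highest and lowest neuron marker level, and for the interaction (-0.03) it was 0.27 without those libraries. Leaving out each library in turn, the median ranged from 0.036 (without control HFD library 1) to 0.45 (without control chow library 1) for diet in controls and from -0.21 (without control HFD library 2) to 0.14 for genotype on HFD. For diet averaged over genotypes it ranged from 0.13 to 0.29 and for genotype on chow from -0.04 to 0.21. The number of members with an unadjusted p under 0.05 moved by over 1.5 times in 66 of 172. For diet averaged over genotypes it was 12 without control chow library 1, 11 without control HFD library 2 and 1 without control HFD library 1, control chow library 2 or labelled mutant HFD library 2. For diet in controls it was 12 without control HFD library 2 and 9 without control chow library 1. For genotype on HFD (0) it was 4 without control HFD library 1 and 3 without control HFD library 2. For genotype on chow it was 7 without control chow library 1, 4 without mutant chow library 3 and 0 without control chow library 2 or mutant chow library 1, and array weights gave 8 for diet in mutants. The cause was not tested. Grm8, Gabbr2 and Grm4 kept the sign of their differences in all 122 fits, and associated genes were not refitted. Rescaling every column to the same sum moved the median of all genes for diet in controls from -0.01 to 0.12, and that of the members from 0.28 to 0.41. The column names carry a number within each group, which no label ties to a litter or batch, and deviations of same-numbered libraries correlated above 0.1 in 3 of 15 pairs (median 0.004, against 0.005 for the others), so the numbers were not taken as pairs. With that number as a replicate block, 0 members passed the adjusted test, the median was 0.19 for diet averaged over genotypes and 0.14 for genotype on chow, and the unadjusted counts were 1 and 2. Tests on counts were not run, since the table holds no counts, and a fit of only the groups compared does not exist for the interaction and the averages.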
